A study of Mus musculus with 4 samples.

Results

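The BMP, SMAD and ID genes followed here were a ligand (Bmp4), its receptors (Bmpr1a and Bmpr2), intracellular signal carriers and an inhibitor (Smad1, Smad4, Smad5 and Smad6) and target genes (Id1, Id2 and Id3). They were chosen by name: the 10 symbols were matched to Ensembl mouse gene identifiers, and all 10 were found among the 43629 identifiers of each library and among the 17022 genes with enough reads to be tested. Poly(A) RNA of mouse embryonic stem (ES) cells was sequenced in 4 libraries. Drosha is the RNase III enzyme that cuts primary microRNA transcripts in the nucleus. Knockout library 1 (KO1) came from cells whose Drosha allele lacks the proline-rich region and knockout library 2 (KO2) from cells whose allele lacks the R/S-rich region, both at passage 7. The wild-type libraries, WT1 at passage 33 and WT2 at passage 42, came from E14 cells, a mouse ES line, and are marked as re-used. All 4 were labelled as blastocyst-derived ES cells of 129/Ola background grown in serum with LIF, the cytokine that holds mouse ES cells undifferentiated.

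Genotype, passage and the re-use of the wild-type libraries coincide, so they cannot be told apart in any KO to WT comparison. The KO libraries also carry the mark d5 in their titles, the meaning of which is not given. Each knockout strategy is represented by 1 library, and the labels do not say whether cultures were separate within a group, so p-values measure the spread between these libraries. In bulk RNA, fewer cells of a type and less RNA per cell cannot be told apart.

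BMP ligands bind a complex of type I receptors, such as BMPR1A, and type II receptors, such as BMPR2. The type II receptor phosphorylates the type I receptor, which phosphorylates SMAD1 and SMAD5; these join SMAD4, enter the nucleus and bind DNA. SMAD6 is an inhibitory SMAD that is itself induced by BMP signals and damps them. ID proteins lack a DNA-binding region and hold bHLH transcription factors in inactive pairs, and in mouse ES cells kept with LIF their induction by BMP is known to restrain neural differentiation.

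Mature microRNAs were not measured in these libraries. Those that mouse ES cells are known to make in abundance belong to the miR-290 and miR-302 family, and a related seed is carried by the miR-17 family. A mature sequence of each is shown because its seed, bases 2 to 8 and here in capitals, sets the letters searched in the 3' UTRs. Sequences are from RefSeq, build GRCm38.p6, with mmu-miR-294-3p at chr7:3220691-3220712 and mmu-miR-17-5p at chr14:115043684-115043706, both on the plus strand.
mmu-miR-294-3p: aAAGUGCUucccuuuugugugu
mmu-miR-17-5p: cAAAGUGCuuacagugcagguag

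The matching letters are AGCACTT for the first seed and GCACTTT for the second, read on the transcript's strand only, and the 2 motifs share GCACTT. Among 14049 tested genes with an annotated 3' UTR, 2180 (15.5%) held AGCACTT and 1851 (13.2%) held GCACTTT, counted on 1 reference transcript per gene. Of the 10 genes, Smad5 held AGCACTT at 2 places and GCACTTT at 1, Bmpr2 held GCACTTT at 2 and Smad6 at 1. The 3' UTRs of Bmp4, Bmpr1a, Smad1, Smad4, Id1, Id2 and Id3 held neither. The UTRs that held a match differed in length, with 8529 bases in Bmpr2, 4899 in Smad5 and 448 in Smad6, against a median of 980 over all genes searched. The 6 matches are shown in capitals with their neighbouring bases (mm10).
Smad5, first AGCACTT, chr13:56740744-56740771, plus strand: gtcacttccctggcAGCACTTgggtccc
Smad5, second AGCACTT, chr13:56741472-56741499, plus strand: taggtcagtgctcgAGCACTTagcaggc
Smad5, GCACTTT, chr13:56738242-56738269, plus strand: aatcttttcattttGCACTTTtatgggt
Bmpr2, first GCACTTT, chr1:59870672-59870699, plus strand: gttttttaagttttGCACTTTtgtttag
Bmpr2, second GCACTTT, chr1:59874348-59874375, plus strand: tatggtatcacactGCACTTTtactctg
Smad6, GCACTTT, chr9:63953278-63953305, minus strand: gaaacaagaaagacGCACTTTggcttgt

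Promoters were searched for 2 sequences that SMAD proteins are known to bind, the palindrome GTCTAGAC and the GC-rich element GGCGCC, each of which reads the same on both strands. The windows ran from 250 bases before to 50 after the annotated start (RefSeq, GRCm38.p6). Windows were searched for 8 of the 10 genes. Id1 had no window in the promoter set used, and the promoter of Smad4 was left out of the search, so whether it holds either sequence was not examined. The palindrome was in 70 of 32851 promoter windows (0.213%), among them that of Smad6, where it began at position -4 from the start. GGCGCC was in 3898 windows (11.9%), among them those of Bmpr1a, Bmpr2 and Id2, and in none of those of Bmp4, Smad1, Smad6 and Id3. Smad5 had more than 1 window. Those at chr13:56702760-56703059 and chr13:56702802-56703101 overlap and shared a GGCGCC match, and that at chr13:56703418-56703717 held none. The promoter of Smad6 is shown as the one that held the palindrome, and those of Id2 and Id3 as target genes with and without GGCGCC, with the matches in capitals.
Smad6, chr9:64022010-64022309, minus strand: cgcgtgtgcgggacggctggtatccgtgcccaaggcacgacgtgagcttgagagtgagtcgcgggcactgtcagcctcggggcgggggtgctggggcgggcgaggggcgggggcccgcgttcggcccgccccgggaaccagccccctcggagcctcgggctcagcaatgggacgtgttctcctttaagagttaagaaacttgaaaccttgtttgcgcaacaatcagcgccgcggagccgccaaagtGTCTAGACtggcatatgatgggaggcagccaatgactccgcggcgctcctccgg
Id2, chr12:25096043-25096342, minus strand: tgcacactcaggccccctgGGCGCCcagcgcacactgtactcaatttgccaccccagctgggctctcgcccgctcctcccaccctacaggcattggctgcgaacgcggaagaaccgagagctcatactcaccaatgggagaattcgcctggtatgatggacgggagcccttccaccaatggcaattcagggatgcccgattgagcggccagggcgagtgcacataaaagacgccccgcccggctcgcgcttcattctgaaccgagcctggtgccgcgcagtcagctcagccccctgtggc
Id3, chr4:136143572-136143871, plus strand: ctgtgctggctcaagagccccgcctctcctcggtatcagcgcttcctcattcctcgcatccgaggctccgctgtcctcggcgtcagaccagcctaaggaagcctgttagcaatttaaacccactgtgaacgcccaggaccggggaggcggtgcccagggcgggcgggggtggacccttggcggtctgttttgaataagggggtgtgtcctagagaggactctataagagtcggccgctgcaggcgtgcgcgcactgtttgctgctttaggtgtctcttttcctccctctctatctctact

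Levels are given in CPM, counts scaled to library size after adjustment by the trimmed mean of M-values (TMM), on which 1 read was worth 0.0225 to 0.0324 CPM. Pairs of values are in the order of libraries 1 and 2. Library totals were 29264632 counts in KO1 and 42322129 in KO2, against 40139219 in WT1 and 39657578 in WT2. The KO libraries differed from each other less than the WT libraries did: chi-square per degree of freedom was 2.26 in the KO pair and 166.7 in the WT pair, where sampling noise alone gives about 1. Drosha itself was present at 157.7 and 158.3 CPM in the KO libraries, against 364.0 and 356.7 CPM in the WT libraries, and fell by 1.19 ± 0.11 on the log2 scale (SE; edgeR quasi-likelihood test, Benjamini-Hochberg adjusted p = 0.0482). These are counts over the whole gene, which need not be lost where part of it is deleted. Dgcr8, whose mRNA Drosha is known to cut, rose by 1.10 ± 0.13 (edgeR adjusted p = 0.0482). Neither gene went against the genotype labels.

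Of the 10 genes, 1 rose in KO cells (Smad6), none fell and 9 did not pass the edgeR test, where 5.45% of all genes passed, 3.51% higher and 1.94% lower in KO. The smallest adjusted p of any gene in this design was 0.0482, shared by many genes. At an unadjusted p under 0.05 the count was 9 of the 10, all but Smad1, where 37.1% of all genes stood below that level. DESeq2 called 5 of the 10, with Bmpr1a, Bmpr2 and Smad5 lower and Smad6 and Id3 higher, where it called 22.6% of all genes. The 2 KO libraries lay above both WT libraries for 4 genes (Smad6, Id1, Id2 and Id3), which held for 36.5% of all genes, and below both for 5 (Bmp4, Bmpr1a, Bmpr2, Smad4 and Smad5), which held for 34.8%. The libraries of the groups did not overlap for 71.2% of all genes. The median fitted log2 fold change of the 10 genes was -0.29, beside -0.016 over all genes tested. With library totals alone it was -0.14, beside 0.126 over all genes, and without WT2 it was -0.11, beside 0.019. With trends in GC content and transcript length removed, as described below, it was -0.21, beside -0.03.

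**Figure D1:**
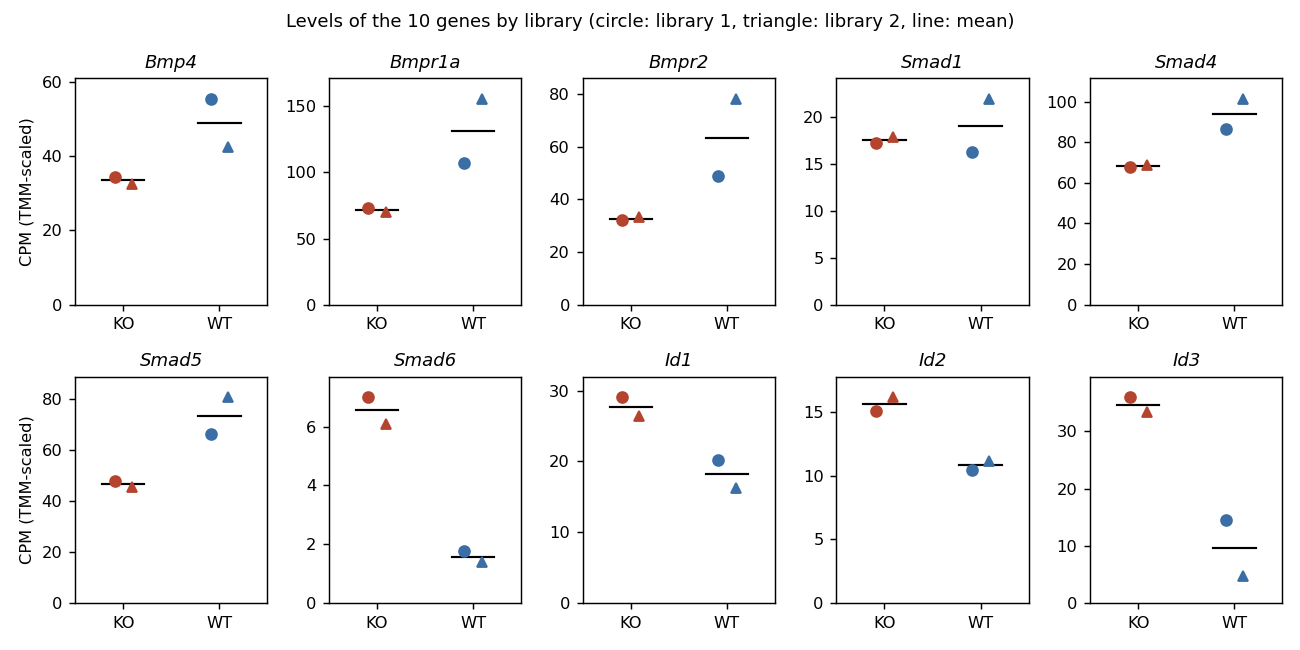
Level of each of the 10 genes in CPM on TMM-scaled library sizes (vertical axes, each starting at 0), KO libraries left and WT libraries right, with circles for KO1 and WT1, triangles for KO2 and WT2 and lines for group means. The KO points nearly coincide for most genes, and the WT points spread more except for Smad6 and Id2. Only for Smad1 do the groups overlap.

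The fitted change moved with base composition over the whole transcriptome. Genes were put in 4 bins of equal size by GC content of annotated transcripts. The median log2 fold change, KO over WT, was -0.57 in the lowest bin (27.5% to 45.8%), followed by -0.27 and 0.16, and it was 0.845 in the highest (54.8% to 78.6%). The WT libraries differed along the same axis, with a median log2 ratio of WT2 over WT1 of 0.26 in the lowest bin and -0.41 in the highest, whereas the median log2 ratio of KO1 over KO2 was -0.039 and 0.049 in those bins. Bmpr1a, Bmpr2 and Smad5 lay in the lowest bin, Id2 in the second, Bmp4, Smad1 and Smad4 in the third and Smad6, Id1 and Id3 in the highest. The change of each member, and of each pathway-list gene described with a fold change, is therefore also given after smooth trends with GC content and transcript length were removed from every library, a fit in which no gene of the 17022 passed the edgeR test and 3995 had an unadjusted p under 0.05. What part GC content has in each change was not tested.

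**Figure D2:**
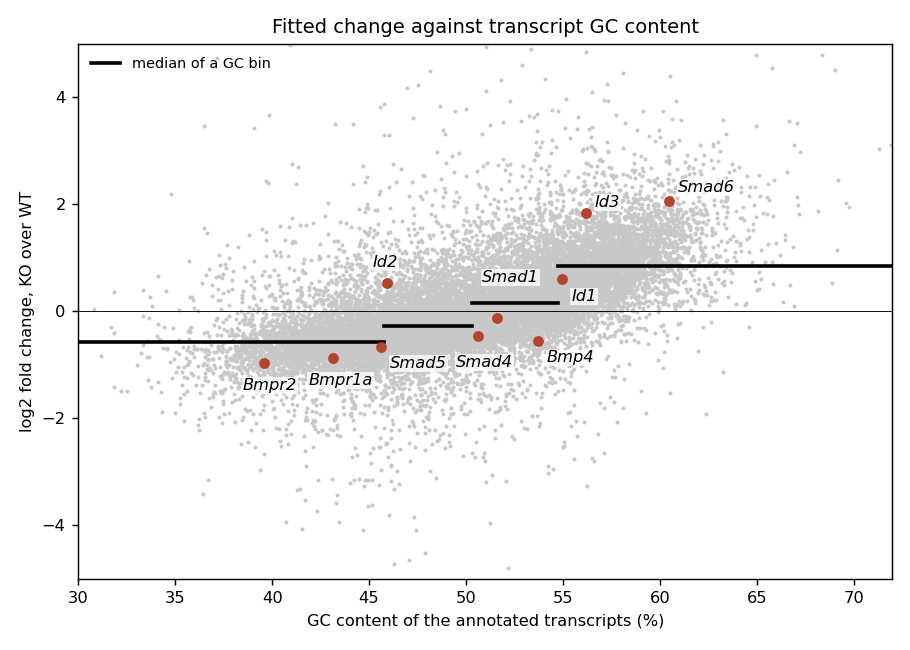
Fitted log2 fold change, KO over WT (vertical axis), against GC content of annotated transcripts in percent (horizontal axis, both axes cropped, so that some genes lie outside), with all genes tested in grey, the 10 genes in red and black lines at the median of each GC bin. Bmpr1a, Bmpr2 and Smad5 sit below the median of the lowest bin (-0.57), Id1 below and Smad6 and Id3 above that of the highest (0.845), and Id2 and Bmp4 lie off the medians of their bins on opposite sides.

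Bmp4 (ENSMUSG00000021835, mm10 chr14:46383520-46390669, minus strand) encodes a secreted ligand that ES cells make themselves. It was measured at 34.4 CPM in KO1 and 32.4 in KO2, against 55.3 in WT1 and 42.5 in WT2. Both KO libraries were lower than both WT libraries, with means of 33.4 ± 1.38 CPM in KO and 48.9 ± 9.08 in WT (SD, n = 2 each). The log2 fold change was -0.55 ± 0.18 (SE; edgeR adjusted p = 0.113), -0.35 without WT1, and with the GC and length trends removed it was -0.91 ± 0.14 (edgeR adjusted p = 0.102). An annotated antisense gene over Bmp4 had at most 11 counts in a library.

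Both receptor genes were lower in KO libraries without passing the test. Bmpr1a (ENSMUSG00000021796, chr14:34410734-34503341, minus strand), which encodes a type I receptor, had 73.3 CPM in KO1 and 70.1 in KO2, against 107.5 in WT1 and 155.6 in WT2. The KO libraries differed by little, and WT2 stood highest. The means were 71.7 ± 2.22 CPM in KO and 131.5 ± 34.1 in WT (SD, n = 2 each), and the log2 fold change was -0.88 ± 0.22 (SE; edgeR adjusted p = 0.0733).

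Bmpr2 (ENSMUSG00000067336, chr1:59763400-59879014, plus strand), the type II receptor whose long 3' UTR holds the GCACTTT matches above, had 32.0 CPM in KO1 and 33.5 in KO2, against 48.8 in WT1 and 78.2 in WT2. Its groups did not overlap, and again WT2 was highest. On the log2 scale the fold change was -0.96 ± 0.26 (SE; edgeR adjusted p = 0.0863). Without WT2 it was -0.57 for Bmpr2 and -0.58 for Bmpr1a. With the GC and length trends removed the change was -0.32 ± 0.15 for Bmpr1a (edgeR adjusted p = 0.281) and -0.23 ± 0.27 for Bmpr2 (edgeR adjusted p = 0.640).

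Smad1 and Smad5 are the receptor-regulated SMADs. Smad1 (ENSMUSG00000031681, chr8:79338395-79399518, minus strand) had 17.2 CPM in KO1 and 17.9 in KO2, against 16.3 in WT1 and 21.9 in WT2. The KO values fell between the WT values, and the log2 fold change was -0.12 ± 0.21 (SE; edgeR adjusted p = 0.686), or -0.19 ± 0.22 with the GC and length trends removed (edgeR adjusted p = 0.632); its sign turned when library totals alone were used (0.031) and without WT2 (0.12).

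Smad5 (ENSMUSG00000021540, chr13:56703010-56742377, plus strand), whose 3' UTR holds matches to both seeds, had 47.8 CPM in KO1 and 45.5 in KO2, against 66.3 in WT1 and 80.8 in WT2. Both KO libraries were lower, with means of 46.6 ± 1.61 CPM in KO and 73.6 ± 10.3 in WT (SD, n = 2 each). The log2 fold change was -0.66 ± 0.15 (SE; edgeR adjusted p = 0.0688) and -0.24 ± 0.11 with the trends removed (edgeR adjusted p = 0.299). Whether Smad5 and Smad1 differ in their change was not tested.

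Smad4 (ENSMUSG00000024515, chr18:73639009-73703780, minus strand) encodes the partner shared by the BMP and TGF-beta branches. It had 68.0 CPM in KO1 and 68.9 in KO2, against 86.8 in WT1 and 101.4 in WT2, so that both KO libraries were lower. KO over WT, the log2 fold change was -0.46 ± 0.14 (SE; edgeR adjusted p = 0.0957). It was nearly the same with the trends removed, at -0.45 ± 0.11 (edgeR adjusted p = 0.136).

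Smad6 (ENSMUSG00000036867, chr9:63953076-64022059, minus strand), the inhibitory SMAD and the gene with the palindrome at its start, rose in KO cells and had the lowest reads of the 10 genes, with 216 counts in KO1 and 271 in KO2, against 70 in WT1 and 50 in WT2. As levels these were 7.00 and 6.11 CPM in the KO libraries, against 1.75 and 1.39 CPM in the WT libraries. The groups lay far apart compared with their spread, with means of 6.55 ± 0.63 CPM in KO and 1.57 ± 0.26 in WT (SD, n = 2 each). The fitted level was 4.16-fold higher in KO, a log2 fold change of 2.06 ± 0.26 (SE; edgeR adjusted p = 0.0482). The call was lost with the GC and length trends removed, where the change was 0.77 ± 0.21 (edgeR adjusted p = 0.155). It was also lost with upper-quartile scaling (change 2.09, edgeR adjusted p = 0.0520) and with library totals alone (change 2.19, edgeR adjusted p = 0.0542). No gene passed in any of these settings, and 0.0520 and 0.0542 were the smallest adjusted p of any gene there. The change was 1.965 without KO1 and 2.161 without KO2, fits that leave 1 KO library. Its transcripts have a GC content of 60.5%, the highest of the 10 genes.

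The 3 ID genes were each higher in both KO libraries than in both WT libraries, and none passed the edgeR test. Id1 (ENSMUSG00000042745, chr2:152736251-152737410, plus strand), a direct SMAD target, had 29.1 CPM in KO1 and 26.4 in KO2, against 20.1 in WT1 and 16.3 in WT2. The means were 27.7 ± 1.90 CPM in KO and 18.2 ± 2.73 in WT (SD, n = 2 each), and the log2 fold change was 0.61 ± 0.18 (SE; edgeR adjusted p = 0.0941). With the trends removed it was 0.041 ± 0.12 (edgeR adjusted p = 0.865).

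Id2 (ENSMUSG00000020644, chr12:25093799-25097140, minus strand), a relative with the same mode of action, had 15.1 CPM in KO1 and 16.2 in KO2, against 10.5 in WT1 and 11.2 in WT2. Its libraries agreed closely within both groups. The log2 fold change was 0.53 ± 0.16 (SE; edgeR adjusted p = 0.0998) and 0.87 ± 0.15 with the trends removed (edgeR adjusted p = 0.107).

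Id3 (ENSMUSG00000007872, chr4:136143497-136145755, plus strand) had 35.9 CPM in KO1 and 33.4 in KO2, against 14.6 in WT1 and 4.75 in WT2. The WT libraries differed 3.06-fold, the widest gap within a group among the 10 genes, whereas the widest gap between the KO libraries was 1.15-fold, in Smad6. The log2 fold change of Id3 was 1.84 ± 0.57 (SE; edgeR adjusted p = 0.101), 1.25 without WT2 and 2.86 without WT1, and with the trends removed 1.17 ± 0.47 (edgeR adjusted p = 0.235).

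**Figure D3:**
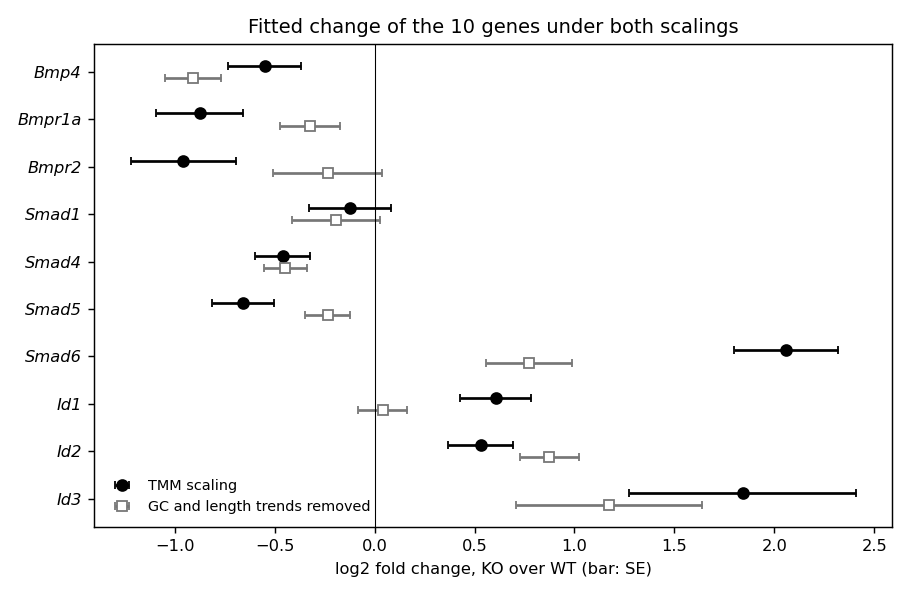
Fitted log2 fold change, KO over WT (horizontal axis), for each of the 10 genes with its SE as a bar, on TMM scaling (filled circles) and with GC and length trends removed (open squares). Smad6 moves to 0.77 and Id1 to 0.041 when the trends are removed, whereas Smad4 stays near -0.45 and Bmp4 and Id2 lie farther from 0.

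Levels of different genes were compared as CPM per kilobase of 1 reference transcript each. In KO libraries the order of mean levels was Id1 (29.7), Id3 (27.1), Smad4 (20.2), Bmp4 (16.2), Bmpr1a (12.0), Id2 (7.95), Smad5 (7.08), Smad1 (5.66), Bmpr2 (2.54) and Smad6 (2.21). The 2 KO libraries separated each gene from its neighbours in that order, narrowly so for Id1 and Id3. In WT libraries the order was Smad4 (27.8), Bmp4 (23.7), Bmpr1a (22.1), Id1 (19.5), Smad5 (11.2), Id3 (7.55), Smad1 (6.17), Id2 (5.50), Bmpr2 (4.92) and Smad6 (0.53). There the libraries of neighbouring genes overlapped, except between Id1 and Smad5 and between Bmpr2 and Smad6. By mean level Id1 and Id3 headed the order in KO cells, and Smad4 and Bmp4 in WT cells. In WT2, however, Bmpr1a (26.1) stood above Bmp4 (20.6). The GC and length trends were not removed from these levels.

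Genes whose 3' UTR held AGCACTT had a median log2 fold change of -0.21, against 0.050 for those without it. For GCACTTT the medians were -0.20 with and 0.043 without a match. With the GC and length trends removed, the medians were -0.019 with and -0.024 without AGCACTT, and -0.016 with and -0.024 without GCACTTT. Of the 3 members with a match, Bmpr2 (-0.96) and Smad5 (-0.66) had negative log2 fold changes and Smad6 (2.06) a positive one.

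The surrounding pathway was described by 7 lists holding 87 gene names, of which 86 matched distinct genes and 61 were tested. Of the 61, 4 rose, 1 fell and 56 did not pass the edgeR test, beside 3.51% higher and 1.94% lower over all genes. An unadjusted p under 0.05 was found for 22 of the 61 and DESeq2 called 15, beside 37.1% and 22.6% of all genes. The median log2 fold change of the 61 was 0.11, and -0.10 with the trends removed. None of the calls among the 61 held on library totals alone, under upper-quartile scaling or once the trends were taken out. No gene of the 17022 passed in those settings, so the loss does not single out the lists. Under upper-quartile scaling the log2 fold changes were 1.699 for Bmp7, 1.164 for Fstl1, 1.138 for Stub1, 1.61 for Tcf3 and -1.059 for Usp9x. Fits without KO1 or without KO2 leave 1 KO library and cannot decide whether a call is kept.

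Among other BMP and GDF ligands, 7 of 16 were tested. Of the 7, 2 had an unadjusted p under 0.05 and DESeq2 called 1, beside 37.1% and 22.6% of all genes. In the edgeR test 1 rose, beside 3.51% of all genes. That was Bmp7, a secreted ligand that can pair with BMP4, with 13.8 and 13.6 CPM in the KO libraries, against 4.61 and 4.03 in the WT libraries. Its log2 fold change was 1.67 ± 0.19 (SE; edgeR adjusted p = 0.0482) and 1.01 ± 0.16 with the trends removed (edgeR adjusted p = 0.104). The list's median was 0.082, and -0.18 with the trends removed.

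None of the 9 other receptors and co-receptors passed the edgeR test, and 2 had an unadjusted p under 0.05, beside 37.1% of all genes. DESeq2 called 3 (Acvr2b, Eng and Rgma, the last named after its values were seen), beside 22.6% of all genes. The list's median log2 fold change was 0.11, and 0.20 with the trends removed. Acvr2a, an activin and BMP type II receptor, had 13.1 and 13.9 CPM in the KO libraries, against 18.2 and 25.4 in the WT libraries (log2 fold change -0.69 ± 0.22 SE, edgeR adjusted p = 0.110). With the trends removed its change was -0.013 ± 0.15 (edgeR adjusted p = 0.968). Its relative Acvr2b had 11.1 and 11.8 CPM in the KO libraries, against 6.64 and 2.72 in the WT libraries. Eng, a co-receptor, had 44.3 and 43.2 CPM in the KO libraries, against 25.8 and 7.05 in the WT libraries. As with Id3, WT2 was by far the lowest library for Acvr2b and Eng. The log2 fold change of Acvr2b was 1.29 ± 0.47 (SE; edgeR adjusted p = 0.132), 0.80 without WT2, and 0.27 ± 0.32 with the trends removed (edgeR adjusted p = 0.651). That of Eng was 1.41 ± 0.64 (SE; edgeR adjusted p = 0.187), 0.77 without WT2, and 0.61 ± 0.51 with the trends removed (edgeR adjusted p = 0.512).

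None of the 4 other SMADs passed the edgeR test. Of the 4, 1 had an unadjusted p under 0.05 and DESeq2 called 0, beside 37.1% and 22.6% of all genes. The list's median log2 fold change was -0.21, and -0.26 with the trends removed. Smad2 of the TGF-beta and activin branch had the smallest p, with 46.8 and 49.6 CPM in the KO libraries, against 60.7 and 73.4 in the WT libraries. Its fitted log2 fold change was -0.48 ± 0.15 (SE; edgeR adjusted p = 0.107), and -0.10 ± 0.12 with the trends removed (edgeR adjusted p = 0.652). Smad7, the other inhibitory SMAD, named after its values were seen, had 81.4 and 78.0 CPM in the KO libraries, against 76.8 and 77.4 in the WT libraries. Its log2 fold change was 0.048 ± 0.11 (SE; edgeR adjusted p = 0.779), and -1.02 ± 0.19 with the trends removed (edgeR adjusted p = 0.111). The difference between the changes of Smad6 and Smad7 was not tested.

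Of 11 tested extracellular antagonists and their regulators, 1 rose, beside 3.51% of all genes. An unadjusted p under 0.05 was found for 6 of the 11 and DESeq2 called 3, beside 37.1% and 22.6% of all genes. The median log2 fold change was 0.17, and -0.090 with the trends removed. Fstl1, a secreted follistatin-like protein known to bind BMP4, had 104.9 and 105.1 CPM in the KO libraries, against 44.6 and 51.6 in the WT libraries. Its log2 fold change was 1.13 ± 0.13 (SE; edgeR adjusted p = 0.0482), and 1.28 ± 0.10 with the trends removed (edgeR adjusted p = 0.101).

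Of 17 intracellular SMAD regulators, 1 rose and 1 fell, beside 3.51% higher and 1.94% lower over all genes. An unadjusted p under 0.05 was found for 6 of the 17 and DESeq2 called 5, beside 37.1% and 22.6% of all genes. The list's median log2 fold change was -0.094, and -0.20 with the trends removed. Stub1, a ubiquitin ligase that can target SMADs, had 101.6 and 94.5 CPM in the KO libraries, against 45.9 and 45.4 in the WT libraries, a log2 fold change of 1.10 ± 0.12 (SE; edgeR adjusted p = 0.0482). Its sign turned with the trends removed, to -0.070 ± 0.18. Usp9x, a deubiquitinase that acts on SMAD4, had 352.3 and 370.5 CPM in the KO libraries, against 846.1 and 694.2 in the WT libraries. Its log2 fold change was -1.09 ± 0.15 (SE; edgeR adjusted p = 0.0482), and -0.40 ± 0.13 with the trends removed.

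None of the 8 tested other BMP target genes passed the edgeR test. Of the 8, 2 had an unadjusted p under 0.05 and DESeq2 called 0, beside 37.1% and 22.6% of all genes. The list's median log2 fold change was 0.42, and 0.048 with the trends removed. Prdm1, a transcription factor induced by BMP in germ cell precursors, had 19.2 and 17.6 CPM in the KO libraries, against 13.3 and 11.6 in the WT libraries (log2 fold change 0.56 ± 0.17 SE, edgeR adjusted p = 0.0968). With the trends removed it was 0.80 ± 0.17 (edgeR adjusted p = 0.120). Id4, the remaining ID gene and also named after its values were seen, had 6.45 and 6.11 CPM in the KO libraries, against 3.01 and 4.56 in the WT libraries. Its log2 fold change was 0.73 ± 0.29 (SE; edgeR adjusted p = 0.150), and 1.29 ± 0.22 with the trends removed (edgeR adjusted p = 0.107). Like Id1, Id2 and Id3 it was higher in both KO libraries than in both WT libraries, which held for 36.5% of all genes.

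Of 5 tested bHLH partners of ID proteins, 1 rose, beside 3.51% of all genes. Of the 5, 3 had an unadjusted p under 0.05 and DESeq2 called 3, beside 37.1% and 22.6% of all genes. Fitted changes were above 0 for 3 of the 5. The median log2 fold change was 0.16, and -0.10 with the trends removed. Tcf3, an E protein that ID proteins bind, had 152.7 and 134.2 CPM in the KO libraries, against 53.8 and 42.3 in the WT libraries. Its log2 fold change was 1.58 ± 0.18 (SE; edgeR adjusted p = 0.0482), and 0.18 ± 0.12 with the trends removed. The other E proteins, Tcf4 and Tcf12, named after their values were seen, were lower in both KO libraries without passing the edgeR test. The log2 fold change of Tcf4 was -0.65 ± 0.18 (edgeR adjusted p = 0.0867), and -0.395 ± 0.27 with the trends removed. That of Tcf12 was -0.59 ± 0.13 (edgeR adjusted p = 0.0642), and -0.10 ± 0.12 with the trends removed.

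**Figure D4:**
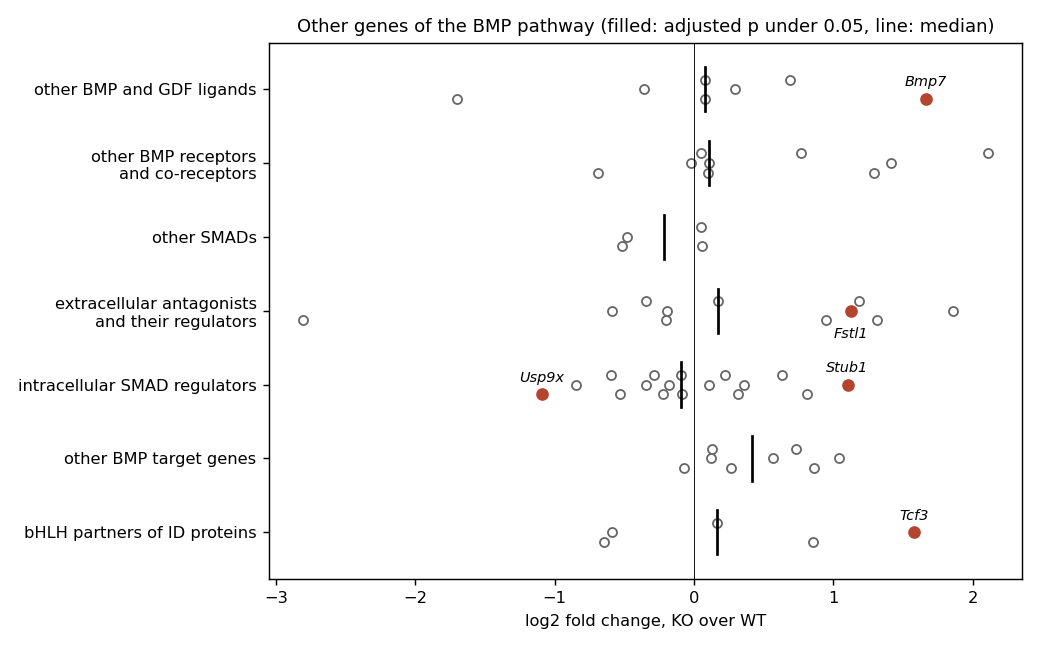
Fitted log2 fold change, KO over WT (horizontal axis), of the 61 tested genes of the 7 pathway lists (one row each), filled where the edgeR adjusted p was under 0.05, with a line at each list's median. The 5 filled points are Bmp7, Fstl1, Stub1 and Tcf3 on the right and Usp9x on the left.

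The genes whose pattern over the 4 libraries lay nearest to that of Bmp4, by Euclidean distance of centred log2 CPM among 9498 genes, were Fam126a (0.0347), Abhd5 (0.0417) and Cers6 (0.0579). Nearest to Id1 were Clpb (0.0182), Rab11fip3 (0.0313) and Gtf3a (0.0378).

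Markers of the labelled cell type were present in every library. The 10 ES cell markers summed to 6898 and 6957 CPM in the KO libraries, against 5944 and 7070 in the WT libraries, led by Dppa5a. Of the 10, 1 rose (Utf1), beside 3.51% of all genes. The log2 fold change of Utf1 was 2.11 ± 0.31 (SE, edgeR adjusted p = 0.0482), and 0.47 ± 0.11 with the GC and length trends removed (edgeR adjusted p = 0.1355). Endoderm markers summed to 389 and 388 CPM in the KO libraries, against 664 and 923 in the WT libraries. Of 12 tested genes 3 were lower, beside 1.94% of all genes, and the median log2 fold change was -1.90. Lama1 had the smallest p, with a log2 fold change of -2.09 ± 0.17 (SE, edgeR adjusted p = 0.0482), and -2.44 ± 0.27 with the trends removed (edgeR adjusted p = 0.101). Of the 12, 10 had an unadjusted p under 0.05 and DESeq2 called 9, beside 37.1% and 22.6% of all genes. Both KO libraries lay below both WT libraries for 11, beside 34.8% of all genes. Trophoblast markers summed to 135 and 131 CPM in the KO libraries, against 81.3 and 62.9 in the WT libraries. Tfap2c was higher, 1 of 8 tested, beside 3.51% of all genes. Its log2 fold change was 1.08 ± 0.125 (SE, edgeR adjusted p = 0.0482), and 0.91 ± 0.11 with the trends removed (edgeR adjusted p = 0.101). Fibroblast and feeder markers summed to 59.5 and 54.6 CPM in the KO libraries, against 45.5 and 32.4 in the WT libraries. Most of each sum was Thy1, with 40.8 and 41.5 CPM in the KO libraries, against 31.5 and 25.9 in the WT libraries. Of the fibroblast and feeder markers, 7 of 11 were tested and none passed the edgeR test. Of the 7, 3 had an unadjusted p under 0.05 and DESeq2 called 2, beside 37.1% and 22.6% of all genes. Both KO libraries lay above both WT libraries for 5, beside 36.5% of all genes, and below both for 0. Dcn had 51 and 24 counts in KO1 and KO2, against 0 in both WT libraries. The markers Col3a1, Postn, Lum and Twist2 are named after their values were seen. Col3a1 had 47 and 14 counts in the KO libraries, against 1 and 0 in the WT libraries. Postn had 22 and 8 counts in the KO libraries and Lum 5 and 3, against 0 in both WT libraries for each. Twist2 was at 0 in every library. Mesoderm markers summed to 12.5 and 11.8 CPM in the KO libraries, against 8.67 and 9.89 in the WT libraries, with none of 5 tested genes passing the edgeR test, 1 at an unadjusted p under 0.05 and 1 called by DESeq2. The part of these cell types in the levels of the BMP, SMAD and ID genes was not tested.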

How the data were processed

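Per the labels, poly(A) RNA was taken up in Trizol and sequenced from reverse-stranded TruSeq libraries. The deposited values are raw read counts per Ensembl gene, made by the authors on build mm10 with STAR 2.4.2a and featureCounts 1.4.5-p1, as the submitters' processing notes list them. Which annotation release and counting options were used is not given in the sources used here. Symbols were matched for 42462 of 43629 identifiers (97.33%).

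The fit used edgeR 4.0.16 (R 4.3.3) on the deposited counts: TMM scaling, filterByExpr (minimum count 10), a quasi-likelihood test of KO over WT on 4 libraries and Benjamini-Hochberg adjustment over the 17022 genes tested, with a threshold of 0.05 on the adjusted p. The tests were checked on simulated data. DESeq2 1.42.0, other scalings, no filter, a replicate block, each library left out and offsets from lowess trends (span 0.3) with GC content and length (GENCODE annotation, 16903 genes) were alternatives. The numbers 1 and 2 name alleles and passages, and the deviations of same-numbered libraries correlated at 0.0461 over genes. Matches to 3' UTRs used the principal transcript of each gene.

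The members and lists were chosen with earlier results of these data known. Text names the 10 members, Drosha and Dgcr8, and up to 3 called genes per list and direction (or the gene of smallest p). It also names list genes of at least 5 CPM with a log2 change of at least 1, and the 3 genes nearest to Bmp4 and to Id1. Of each marker list it names the genes of smallest p and of highest level. Genes outside this rule are marked in the text as named after their values were seen.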

Additional observations from a re-analysis of the deposited data

How the results depend on the processing

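The count of the 10 genes called was 1 with TMM and with RLE size factors, 0 with upper-quartile scaling, with library totals alone and once trends with GC and length were removed, 3 with no filter (Bmpr1a, Smad6 and Id3) and 5 with DESeq2. In the same settings, pathway-list genes called were 5 with TMM, 0 in those without a member called, 15 with DESeq2 and 7 with no filter, and all genes called were 927, 0, 3851 and 2663, with 3995 to 6267 genes at an unadjusted edgeR p under 0.05 where none was called. Library totals alone moved the median log2 fold change of all genes to 0.13, and the log2 fold change of Smad1 to 0.031. With a replicate block, although the numbers do not pair the libraries (correlation of deviations 0.0461), 2 of the 10 (Smad6 and Id3) and 1929 of all genes were called, and with the block and the trends removed 0 members, 0 list genes and 0 of all genes (3001 at an unadjusted edgeR p under 0.05). Stub1 turned to -0.070 with the trends removed and -0.054 with the block as well. Leaving out 1 library gave 0 to 10 members called, 0 to 47 list genes and 0 to 13658 genes: 0 without KO1, 22 without KO2, 13658 without WT1 and 12089 without WT2, when the spread came from the KO pair alone and the lone WT library was taken to vary as little. The log2 fold change of Smad1 ran from -0.32 without WT1 to 0.12 without WT2. Over the 10 members and the 10 list genes that the naming rule picked, 165 values kept direction and side of the threshold, 37 passed it newly, 34 no longer passed and 4 turned sign (Smad1 and Stub1). The causes were not tested. The number of libraries, 2 per group, limits the precision, and depth bears most on Smad6, at 50 to 271 counts per library.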

Other observations

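Of the 86 pathway genes, 25 had too few reads to be tested, 9 of them BMP and GDF ligands and 9 extracellular antagonists or their regulators. Bmp2, a ligand close to BMP4 and named here after its values were seen, had 1 and 5 counts in the KO libraries, against 10 and 22 in the WT libraries. The antagonist Nog, named likewise, had 6 and 11 counts in the KO libraries, against 8 and 5 in the WT libraries. Gdf3, also named after its values were seen, a tested ligand of the TGF-beta superfamily that ES cells express, had 76.1 and 73.2 CPM in the KO libraries, against 56.8 and 35.6 in the WT libraries (edgeR adjusted p = 0.138).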
